A study of Mus musculus with 12 samples.

Results

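The regions described here are stretches of open chromatin that were called in Th1 cells and not in Th2 cells, whether or not the mice carried the enhancer deletion. Overlapping peaks (at least 1 bp) of all 12 deposited ATAC-seq peak lists on chromosomes 1 to 19 and X were merged, and a merged region was kept where all 4 Th1 libraries and none of the 4 Th2 libraries had a peak. This gave 481 of 110642 regions (0.435%), called Th1-only below. The regions were chosen by the presence and absence of peaks in the Th1 and Th2 lists, so their Th1 and Th2 peaks are a description. The naive lists took part in the merging but not in the rule, and the position of the regions and their neighbouring genes were not used. ATAC-seq marks accessible DNA by insertion of the Tn5 transposase. The cells were CD4+ T cells from the spleens of wild-type C57BL/6J mice and of C57BL/6J-Ets1-SE-KO mice, which lack a super-enhancer (a group of enhancers close together) of the transcription factor gene Ets1 according to the strain label. Sex and age were not given in the sources used here. Naive cells, isolated by negative selection, were profiled directly or cultured for 6 days with anti-CD3 and anti-CD28. The Th1 cultures received IL-12 at 10 ng/mL and IL-2 at 1 ng/mL. The Th2 cultures received IL-4 at 50 ng/mL and an antibody against interferon-gamma. Each of the 3 cell types had 2 libraries per genotype. The Th1 and Th2 libraries were 2 biological replicates by their titles, and the naive ones came from 1 biological sample per genotype, each run as 2 technical replicates. Of the knockout libraries titled Th1, 2 name Th2 cells as their source and were taken as Th2, as the names of their deposited lists also have it.

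Naive CD4+ T cells become Th1 cells under T cell receptor stimulation and IL-12, which acts through STAT4. The T-box factor T-bet (Tbx21) and RUNX3 then act at the gene of interferon-gamma (Ifng), the cytokine that defines the Th1 type. Th2 cells arise under IL-4, STAT6 and GATA3 and make IL-4, IL-5 and IL-13 instead. Enhancers and promoters in use lie in open chromatin, so a region open in one type and not in the other is a candidate regulatory element of that type, and open chromatin does not by itself show activity. Ets1 is an ETS factor of T cells known for its part in Th1 responses.

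Peak lists held 34746 to 46006 peaks in Th1 libraries, 51600 to 56357 in Th2 libraries, and 41075 to 56195 in naive libraries. The number of reads behind them is unknown, and a region without a peak may be closed or may have been missed. The shortest list was that of Th1 wild-type replicate 2, and without this library the rule gave 800 regions. As a check of the genotype labels, a stretch beyond the end of Ets1 (chr9:32897820-32928820) held peaks in 6 or 7 regions of each wild-type library and in 1 region of each knockout library, and none of these regions was Th1-only. As a check of the cell type labels, regions within 20 kb of the Th1 markers Ifng, Tbx21, Il12rb2, Il18r1, Il18rap, Cxcr3 and Hlx were open at 30 to 41 places in Th1 and 29 to 34 in Th2 libraries. Those of the Th2 markers Gata3, Il4, Il5, Il13, Il1rl1, Ccr4 and Ptgdr2 were open at 24 to 36 places in Th1 and 40 to 44 in Th2 libraries. The Th1 marker counts overlapped between the cell types and the Th2 marker counts did not. Every Th2 list was longer than every Th1 list, which can raise Th2 counts at any genes. The check therefore does not decide the cell type labels. In bulk libraries, fewer cells with an open site and less opening per cell cannot be told apart.

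At 18 gene starts of 15 genes, a Th1-only region overlapped the promoter, taken as the 250 bases before the start and 50 after it in RefSeq's table for GRCm38.p6. Of these promoters, 4 are printed because they carry motifs of factors known in Th1 cells: Ifng itself, Nkg7, a granule protein gene of cytotoxic and Th1 cells, Serpina3f, a serine protease inhibitor gene, and Sun3, a nuclear envelope gene best known from testis. Each line gives the 250 bases before the start, 5′ to 3′ on the gene's strand. Capitals mark matches on either strand to the STAT motif TTCNNNGAA, the T-box motif GGTGTGA and the RUNX motif TGTGGTT.

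Ifng promoter, chr10:118440796-118441045, plus strand: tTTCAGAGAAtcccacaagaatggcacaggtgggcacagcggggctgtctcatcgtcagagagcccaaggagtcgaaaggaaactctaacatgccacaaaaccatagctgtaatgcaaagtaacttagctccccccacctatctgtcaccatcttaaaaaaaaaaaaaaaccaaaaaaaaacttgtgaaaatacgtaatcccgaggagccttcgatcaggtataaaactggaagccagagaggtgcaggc

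Nkg7 promoter, chr7:43436888-43437137, plus strand: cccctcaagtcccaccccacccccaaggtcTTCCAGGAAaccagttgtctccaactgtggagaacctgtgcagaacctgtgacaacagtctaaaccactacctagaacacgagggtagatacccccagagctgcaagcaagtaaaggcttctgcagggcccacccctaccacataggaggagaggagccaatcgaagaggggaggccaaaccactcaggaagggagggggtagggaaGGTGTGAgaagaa

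Serpina3f promoter, chr12:104214294-104214543, plus strand: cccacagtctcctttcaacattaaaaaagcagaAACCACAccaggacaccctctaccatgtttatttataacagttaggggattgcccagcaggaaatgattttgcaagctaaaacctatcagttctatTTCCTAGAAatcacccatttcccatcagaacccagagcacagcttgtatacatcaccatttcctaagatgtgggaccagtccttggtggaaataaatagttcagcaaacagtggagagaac

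Sun3 promoter, chr11:9039592-9039841, minus strand: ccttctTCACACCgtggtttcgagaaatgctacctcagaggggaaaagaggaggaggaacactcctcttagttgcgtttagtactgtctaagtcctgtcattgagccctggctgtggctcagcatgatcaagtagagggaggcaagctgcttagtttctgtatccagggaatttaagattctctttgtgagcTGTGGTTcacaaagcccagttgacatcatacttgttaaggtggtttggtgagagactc

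Ifng carried 1 STAT match at the far end of this window, 249 to 241 bases before the start, and Serpina3f carried 1 at 121 to 113 bases with a RUNX match at 217 to 211 bases. Nkg7 had a T-box match 13 to 7 bases before its start and a STAT match at 220 to 212 bases. Sun3 had a T-box match at 244 to 238 bases and a RUNX match at 58 to 52 bases. Among the 15 genes, 3 (20%) had a T-box match against 3.96% of the 26794 genes with a promoter in the table, 4 (26.7%) had a RUNX match against 5.40%, and 4 (26.7%) had the STAT match against 8.51%. The IRF motif (interferon regulatory factors) was found in 3 (20%) against 3.51%, the ETS motif AGGAAGT in 2 (13.3%) against 9.61%, and the AP-1 motif TGANTCA in 0 against 7.98%. Letters of the STAT and IRF motifs overlap at Ncf1, which encodes a subunit of the phagocyte oxidase. With equal numbers of peaks from every list the T-box share fell to 6.25% (4 of 64 genes), and the RUNX and STAT shares were 9.38% each. At the 49 genes whose promoters overlap a Th2-only region, RUNX matches were found in 14.3%, STAT matches in 10.2%, T-box matches in 2.04% and AP-1 matches in 18.4%. These matches describe letters in a window and show no binding. Ifng, Nkg7, Sun3 and Serpina3f differed in how often their regions were called in naive cells, in 4, 4, 0 and 2 of the 4 naive libraries.

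Ifng held 4 Th1-only regions, the largest number in any group with gaps of up to 100 kb, equalled by 1 other group near Sp4. Ifng (NCBI gene 15978) lies at chr10:118441046-118445894 on the plus strand, and 36 regions with a peak in any library lie within 100 kb of it. Of these, 4 were Th1-only, 16 (these 4 among them) had a peak in some Th1 and no Th2 library, and none had a peak in a Th2 library without one in Th1. The number of open regions in this window was 19, 19, 18 and 19 in the Th1 libraries, 9, 6, 10 and 8 in the Th2 libraries, and 18, 15, 15 and 14 in the naive libraries. Every Th2 library thus had fewer open regions here than every Th1 and every naive library, although the Th2 lists were the longer ones compared with Th1. The 4 Th1-only regions count in every Th1 and in no Th2 library by the rule, so part of this gap was set by the choice.

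The Th1-only region 34.0 kb before the Ifng start (chr10:118406775-118407383, outside any gene body) ranked first of the 481 by its lowest score percentile. A score percentile gives the place of the peak within its own list by the caller's score, with 100 as the strongest peak, and it is a rank within a library that is not compared as a level between lists of different length. This region stood at percentiles 92.1 and 94.2 in the wild-type and 93.5 and 93.7 in the knockout Th1 libraries, and at 57.1 and 59.5 in the wild-type and 64.1 and 63.6 in the knockout naive libraries. The fold enrichment over background that the authors' peak caller gave was 5.58, 6.28, 6.22 and 5.87 in Th1, against 6.05, 6.88, 6.26 and 5.97 in naive lists. It was an open site of naive cells that had a peak in each Th1 library and in no Th2 library.

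The region over the Ifng start (chr10:118440619-118441327) overlaps the promoter printed above. Its percentiles were 69.1, 52.0, 62.1 and 62.4 in Th1 and 30.5, 36.5, 8.91 and 26.1 in naive libraries, so it was called in naive cells too. The region 54.4 kb before the start (chr10:118386206-118387091) had percentiles of 38.7, 59.5, 64.3 and 68.7 in Th1 and no naive peak. The region 86.1 kb after the start (chr10:118526856-118527446) had 45.9, 80.0, 35.8 and 64.3 and no naive peak. A further region 5.52 kb before the start (chr10:118435194-118435853) stood outside the rule by 1 library: it had Th1 peaks at percentiles 62.9, 27.7 and 11.3, none in Th1 knockout replicate 2 and none in Th2 or naive cells. Both distal regions and this proximal one were thus called in cultured Th1 cells and not in naive cells, whereas the promoter and the region at 34.0 kb were called in both.

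**Figure D1:**
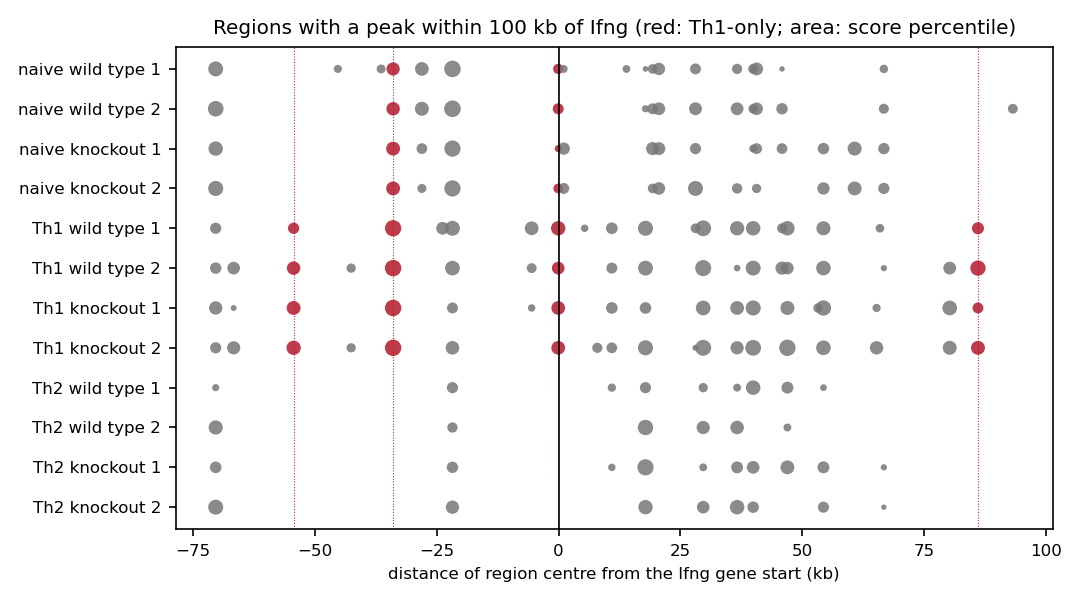
Regions with a peak within 100 kb of Ifng in each of the 12 libraries, by the distance of the region's centre from the gene start in kb. Each point is a region with a peak, its area growing with the score percentile within the list, and red points are the 4 Th1-only regions. The Th2 rows hold 6 to 10 points and the Th1 rows 18 or 19, the 4 Th1-only regions being in every Th1 and no Th2 row by the rule.

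Genes of cytokine receptors had regions of very different rank. Il23r and Il12rb2 lie side by side on chromosome 6 on the minus strand. They encode chains of the receptors of IL-23, a cytokine that acts on Th17 cells, and of IL-12. The region inside Il23r (chr6:67475360-67476028) had rank 3 of 481, with percentiles 84.0, 85.5, 88.0 and 87.8 in Th1 and no naive peak. The region 23.2 kb before the start of Il12rb2 (chr6:67399484-67400137) had 36.8, 38.3, 87.7 and 38.4 in Th1, where knockout replicate 1 stood apart, and 92.5, 94.9, 76.1 and 82.3 in naive libraries. So of a pair of sites 75.2 kb apart, 1 was called only after culture and the other stood in the upper part of every naive list. Another region, at the far end of Il23r (chr6:67424837-67425289), had a peak in all 4 Th1 libraries and in 1 Th2 library at percentile 2.27, which put it outside.

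Il18r1 encodes the IL-18 receptor chain of Th1 cells, and its Th1-only region (chr1:40469750-40470278, inside the gene) had percentiles of 64.7, 9.30, 8.96 and 20.6 in Th1 and of 70.4, 75.4, 38.2 and 47.4 in naive cells. It ranked low in 3 of 4 Th1 lists and was not Th1-only with equal numbers of peaks per list or with a −log10 q-value of at least 2. The same region lies 4.33 kb beyond Il1rl1, the IL-33 receptor gene of Th2 cells.

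Effector genes of Th1 and cytotoxic cells had 1 region each at Nkg7 and Cd226 and a pair near Xcl1. The region at the start of Nkg7 (chr7:43436367-43437204) stood at 65.7, 59.5, 81.8 and 48.7 in Th1 and at 1.70, 16.6, 4.39 and 0.945 in naive libraries, which placed it among the weakest naive peaks and in the upper part of most Th1 lists. Xcl1, a chemokine gene, had a region 30.4 kb before its start (chr1:164965885-164966652) at 79.5, 70.1, 59.6 and 73.2 in Th1 and 78.6, 75.8, 75.8 and 80.1 in naive cells. The other region near Xcl1 (chr1:164999205-164999854), 63.7 kb from the gene, stood at 23.8, 9.30, 37.9 and 22.9 in Th1 and had a peak in both wild-type naive libraries and in neither of the knockout. Cd226, an activating receptor gene of T and NK cells, had a region in its body (chr18:89245260-89246004) at 79.0, 88.9, 87.0 and 84.5 in Th1. The naive percentiles of the Cd226 region were 97.1, 96.5, 91.3 and 92.5. At the nearer Xcl1 region and at Cd226, sites of high rank in naive lists were thus called in every Th1 and in no Th2 library.

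Transcription factor genes of Th1 and cytotoxic cells were represented mostly by weak or distant regions. Eomes, the T-box factor of cytotoxic cells, had a region just inside its start (chr9:118478541-118479328) at 11.5, 13.8, 47.5 and 29.97 in Th1 and a peak in 1 naive library at 2.12. The region also covers the start of the non-coding gene Gm33408 on the other strand. Runx3, a partner of T-bet at Ifng, had a region 39.8 kb before its start (chr4:135080506-135080860) at 26.1, 38.3, 16.2 and 22.9, and Irf8, an interferon regulatory factor gene, had one 24.7 kb before its start (chr8:120711238-120711674) at 42.4, 5.24, 47.5 and 15.7. Cxcr3, the chemokine receptor of Th1 cells, had one 37.7 kb before its start (chrX:101771833-101772413) at 11.5, 2.10, 8.96 and 42.1. None of these 4 regions was Th1-only with equal numbers of peaks per list or with a −log10 q-value of at least 2. The Runx3 region also lay 0.24 kb from a region with a Th2 peak. A region 1.24 kb before the Runx3 start (chr4:135118855-135119406) stood outside the rule. It had Th1 peaks at 21.3, 42.1 and 2.69, none in wild-type replicate 2 and none in Th2 cells.

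T-bet's own gene was outside. The region over the start of Tbx21 (chr11:97115115-97115574) had peaks in 3 Th1 libraries, at 11.5, 13.7 and 10.8, with none in wild-type replicate 2 and none in Th2 cells. Stat4, the IL-12 signal transducer gene, had 2 regions inside the gene with 3 Th1 peaks and 1 Th2 peak each.

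Prdm1 encodes Blimp-1, a transcriptional repressor in effector lymphocytes, and had 3 Th1-only regions, a pair before its start and 1 beyond its end. A region 36.3 kb before its start (chr10:44564820-44565722) stood at 94.4, 78.3, 52.6 and 78.0, and a second lay 49.8 kb further on (chr10:44615514-44616073). Neither had a naive peak. The region beyond its end (chr10:44403278-44403895, 33.3 kb from the gene) stood at 30.6, 64.9, 4.93 and 56.8 in Th1 and at 29.8, 48.3 and 49.8 in the 3 naive libraries that had a peak. The other named regions included Tgfbr2, the TGF-beta receptor gene (chr9:116114133-116114797, inside the gene), at 69.9, 68.5, 18.8 and 75.2 in Th1 and 81.8, 85.8, 63.0 and 77.5 in naive cells. At the start of Tgfb1, the gene of the cytokine TGF-beta 1, a region (chr7:25686829-25687566) stood at 9.16, 20.8, 21.4 and 48.7 in Th1 and had a peak in 2 naive libraries. Neither this region nor the one beyond the end of Prdm1 was Th1-only with equal numbers of peaks per list or with a −log10 q-value of at least 2. The region at the start of Ncf1 (chr5:134229480-134229913) stood at 30.6, 47.5, 35.8 and 34.4 in Th1 and had a peak in 3 naive libraries. Of the other printed promoters, the region of Serpina3f (chr12:104213908-104214828) stood at 13.9, 2.10, 45.7 and 45.6 in Th1. It was not Th1-only with a −log10 q-value of at least 2. The region of Sun3 (chr11:9039489-9039956) stood at 36.8, 62.9, 51.0 and 72.5. Ets1 had a Th1-only region 19.9 kb outside its body (chr9:32615837-32616360), on the side away from the enhancer stretch, at 47.6, 5.24, 43.9 and 62.4 in Th1 and 95.1, 96.0, 89.6 and 90.8 in naive cells. The Ets1 region was called in all Th1 and naive libraries of both genotypes and was not Th1-only with a −log10 q-value of at least 2.

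**Figure D2:**
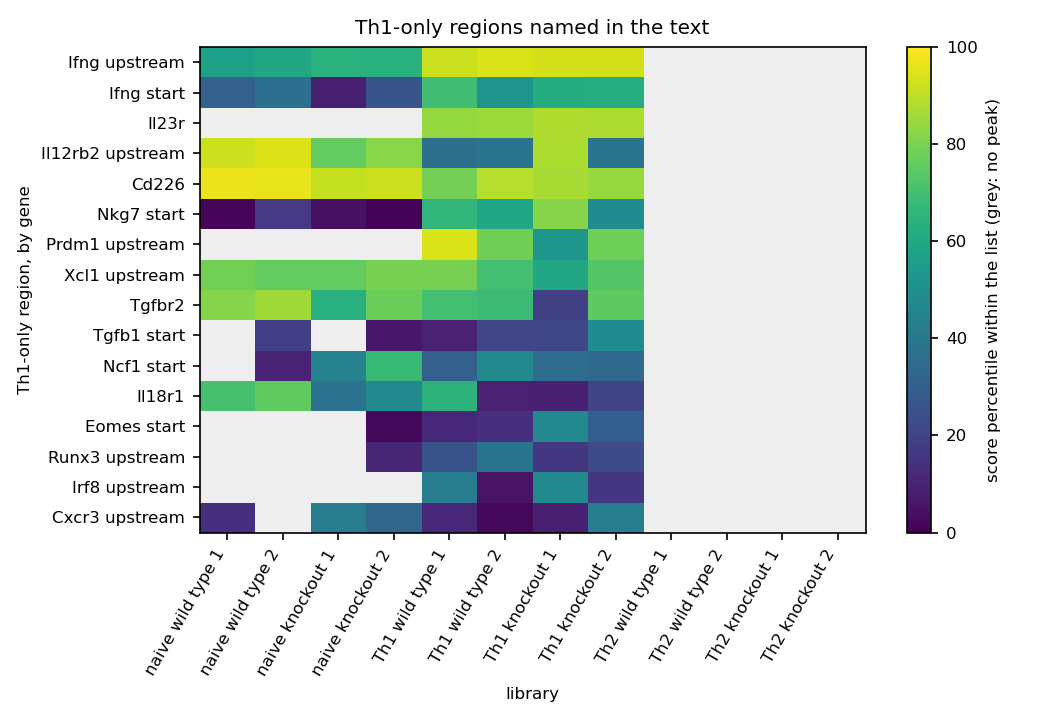
Score percentile of 16 Th1-only regions named by their gene, in each of the 12 libraries, with grey where no peak was called. The Th2 columns are grey by the rule, and the naive columns separate regions such as those in Il23r and 36.3 kb before Prdm1, without a naive peak, from Cd226, which stood at 91.3 or above in all naive lists.

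Over the gene lists, Th1 genes had a Th1-only region within 20 kb of the gene body at 3 of 25 genes (Ifng, Il18r1 and Nkg7), against 432 of 21627 protein-coding genes (2.00%). Within 50 kb it was 7 of 25, with Il12rb2, Il18rap, Runx3 and Cxcr3 added, against 727 genes (3.36%). Genes of IL-12 and interferon signalling had 0 of 19 within 20 kb, and CD8 and NK genes had 2 of 18 (Eomes and Cd226). Th17 genes had 2 of 10 (Il23r and Rora), T cell identity genes 2 of 21 (Ets1 and Ikzf1) and inhibitory receptor genes 1 of 12 (Lag3). Th2 genes had 1 of 20, which was Il1rl1 through the region inside Il18r1. Regulatory T cell, follicular helper, AP-1 and NFAT, migration, myeloid, red cell and housekeeping lists had none within 20 kb. The lists hold only 7 to 25 genes each, and nothing particular to a list is read from these counts.

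B cell genes had 2 of 8 (Ebf1, an early B cell factor, and Cd22, a B cell receptor inhibitor). Regions around the 5 B cell markers Cd79a, Cd79b, Ms4a1, Pax5 and Ebf1 were open at 21 to 29 of 66 places in Th1, 22 to 28 in Th2 and 18 or 19 in the wild-type and 26 or 32 in the knockout naive libraries. The Th1 and Th2 ranges overlap, the naive genotypes do not, and the part of other cells in these 2 regions was not tested.

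The strongest regions were mostly not at known Th1 genes. Beside the Ifng and Il23r regions and that of Cd226, the 15 strongest by lowest percentile lay inside Ccdc73, Dnah3, Tmem260, Pdzd2, Prdm15 and Manba, or nearest to Bbs9, Ppp4r2, Fam174a, Zfp85, Rgs9 and Siah1a. The second strongest (chr9:22971235-22971871), 83.0 kb from the ciliary gene Bbs9, stood at 87.7, 92.3, 94.1 and 90.01 in Th1 and 80.0, 77.0, 57.4 and 78.8 in naive cells. The region nearest to Fam174a (chr1:94827572-94828118) was 486 kb from any protein-coding gene body and stood at 95.3, 80.0, 87.7 and 95.2 in Th1, with no naive peak. The region near Ppp4r2, a phosphatase regulatory subunit gene, lay at chr6:100824286-100825001. It stood at 88.3, 82.1, 94.8 and 91.9 in Th1 and at 4.99, 1.04, 51.2 and 17.1 in naive cells. All 15 regions met the rule under every alternative setting run, and 8 of them lay inside a gene. Being chosen for high percentiles favours them under the limits on q-value and list length, and leaving out a library loosens the rule. Their passing is thus no independent support.

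Few genes held more than 1 of the regions: 422 protein-coding genes had 1 within 20 kb and 10 had 2, among them Ube2f, Lrrk1, Nebl, Fggy, Igf2bp3, Myo6, Rngtt, Tdrd3 and Cd200r3. Most regions stood alone, with a median of 1166 kb to the next Th1-only region, and 27 groups within 100 kb of each other took in 58 regions. The 4 at Ifng span 141 kb, and 4 further regions lie 70.5 to 123 kb from Sp4, a zinc finger factor gene on chromosome 12. Percentiles of these 4 ranged from 6.86 to 68.3, lower than the highest values at Ifng. Other groups lay at Prdm1, at Il23r and Il12rb2, near Mdfic (MyoD family inhibitor domain), at Xcl1 and at Cd200r3, with 2 regions each.

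As a group, the 481 regions were weaker than those open in every library. Their median percentiles were 40.5 and 38.3 in the wild-type and 42.1 and 43.9 in the knockout Th1 libraries, against 70.1 to 75.2 for regions with a peak in all 12 libraries. Low rank was not particular to them: Th2-only regions had median percentiles of 41.5 to 46.5 in the Th2 lists. The authors' fold enrichment had medians of 3.86 to 4.00. Above the 50th percentile in all 4 Th1 lists stood 46 regions, and 138 had a lowest percentile below 10. Median width was 533 bp (280 to 1392), against 450 bp for all regions and 978 bp for those in every library. Across the 481 regions, the Spearman correlation of percentiles between pairs of Th1 libraries was 0.267 to 0.407, a description over regions selected to have a peak in all 4 and sharing their libraries.

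Wild-type and knockout Th1 libraries gave the regions median percentiles of 39.4 ± 1.56 and 43.0 ± 1.30 (SD, n = 2 each), a difference of 3.54 between lists of unequal length, and with equal numbers of peaks per list it was 0.654. A two-sided exact permutation test of 2 against 2 libraries cannot go below p = 0.33, the value it gave, so it says nothing for or against a difference between the genotypes.

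**Figure D3:**
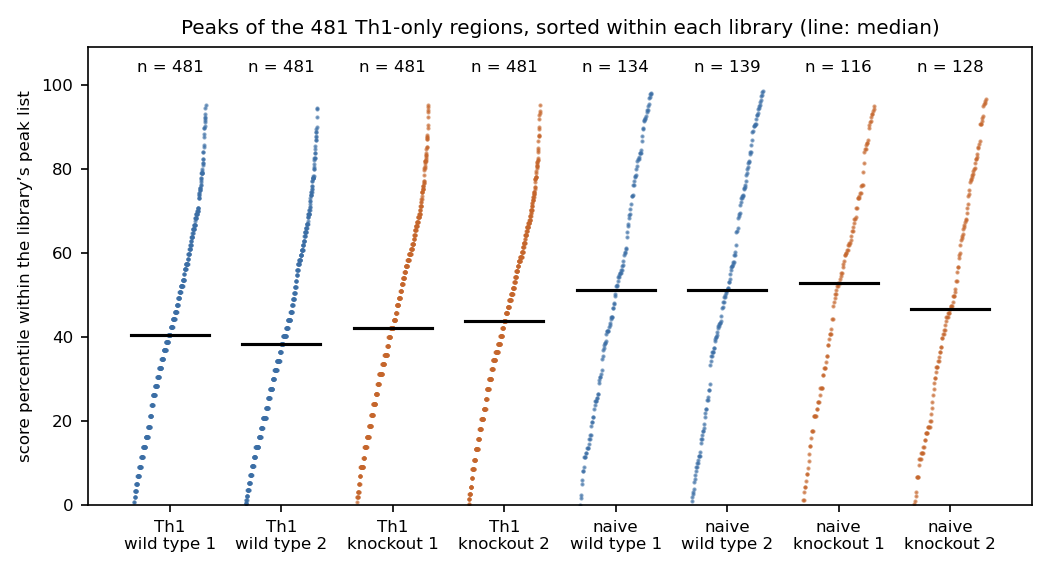
Score percentiles of the peaks in the 481 Th1-only regions, sorted within each Th1 and naive library, with wild type in blue, knockout in orange and the median as a line. The 4 Th1 medians lie between 38.3 and 43.9, and the naive columns hold 116 to 139 peaks.

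At the border of the rule, 444 regions had a peak in all 4 Th1 libraries and in 1 Th2 library, with 106 to 119 for each Th2 library. The lone Th2 peak had a median percentile of 16.6 to 18.4 in its list. A further 734 regions had 3 Th1 peaks and no Th2 peak, and 316 of them lacked the peak of Th1 wild-type replicate 2, the shortest list, against 101 to 184 for the other libraries. The number of regions just outside thus exceeded the number inside. The weakest inside (chr12:84245685-84246117) had percentiles of 0.787, 0.189, 26.4 and 13.2, and a region just outside (chr2:69917032-69917451) had 57.4, 25.4, 59.6 and 42.1 in Th1 and 1 Th2 peak at 0.404.

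The regions were also merged again and chosen from 10 lists, with 1 Th1 and 1 Th2 library of the same genotype and number left out, and then read in these 2 libraries. Without wild-type replicate 1, 717 regions met the rule, and 82.3% of them had a peak in the left-out Th1 library against 39.0% of all regions, while 18.5% had one in the left-out Th2 library against 46.8%. Without wild-type replicate 2 the shares for 977 regions were 61.2% in Th1 and 18.1% in Th2. Without knockout replicate 1 they were 73.7% and 18.5% for 816 regions, and without knockout replicate 2 they were 79.6% and 17.2% for 746. In each of the 4 readings the left-out Th1 share lay above that of all regions and the left-out Th2 share below it. Libraries share many peaks, so regions chosen by the other libraries tend this way by construction, and the direction is a description only. No share was computed for regions matched by their peaks in the other libraries.

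**Figure D4:**
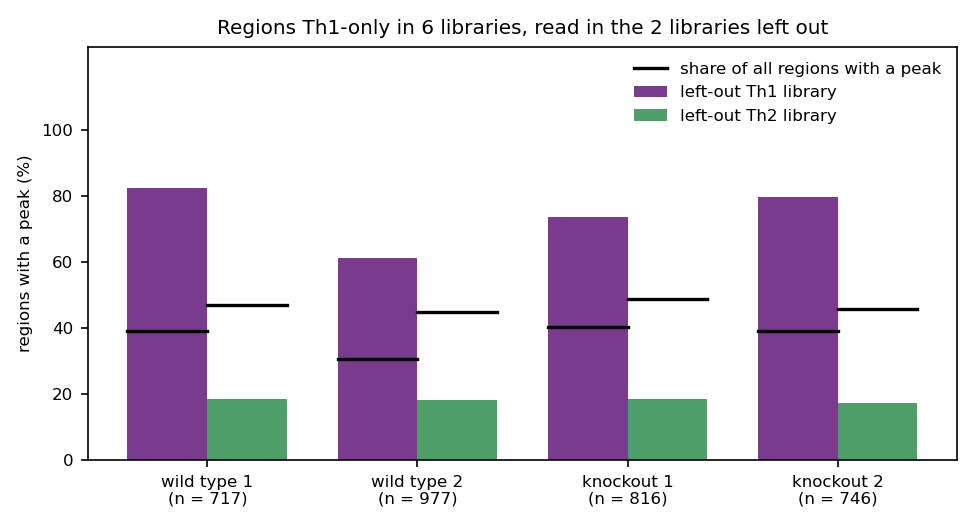
Share of regions (in percent) with a peak in the Th1 and Th2 libraries left out of the choice, for each of 4 left-out pairs, with the share of all regions merged from the other 10 lists as a black line. Th1 shares of 61.2% to 82.3% lie above their lines and Th2 shares of 17.2% to 18.5% below.

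Between genotypes, the call was kept for a minority. With wild-type libraries alone, 1746 regions (1.58% of all) had a peak in both Th1 and neither Th2 library. Of these, 481 (27.5%) showed the same pattern in the knockout libraries, where 2.12% of all regions did. Another 347 had both knockout Th1 peaks with at least 1 Th2 peak, 306 had no peak in any of the 4 knockout libraries, and 112 had no Th1 peak and at least 1 Th2 peak. Chosen in the knockout, 2350 regions (2.12%) met the pattern, and the same 481 (20.5%) did so in wild type, where 1.58% of all regions did. Single libraries moved these shares: the first was 17.2% without Th1 wild-type replicate 1 and 14.2% without replicate 2, and the second was 11.3% without Th1 knockout replicate 1, 9.36% without replicate 2 and 34.0% without Th1 wild-type replicate 2. Th1 and Th2 libraries of both genotypes differ in list length. Some calls also failed to repeat in left-out replicates, and whether the knockout changed the shares was not tested.

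The mirror set was larger: 2696 regions (2.44%) had a peak in all 4 Th2 and no Th1 library, 5.60 times as many. Th1-only regions made up 1.86% of the 25851 regions open in all 4 Th1 libraries, and Th2-only regions 7.47% of the 36107 open in all 4 Th2 libraries. The Th2 lists were longer. With equal numbers of peaks from each list the counts were 769 Th1-only and 1224 Th2-only regions.

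Naive cells already had a peak at 168 of the 481 Th1-only regions (34.9%, exact binomial 95% interval 30.7% to 39.4%, counting error only), and 313 had none. Peaks in all 4 naive libraries were found at 87, in 3 at 23, in 2 at 42 and in 1 at 16. Of the Th2-only regions 15.7% (14.3% to 17.1%) had a naive peak, of all regions 59.3%, and of regions open in all Th1 and at least 1 Th2 library 70.9%. The naive libraries came from 1 biological sample per genotype, so these intervals do not cover differences between animals. With equal numbers of peaks the shares were 34.5% (265 of 769) for Th1-only and 7.43% (91 of 1224) for Th2-only regions. Regions with a naive peak were wider (median 600.5 bp, against 493 bp without), but a naive peak added in the merging can only keep or widen a region. Of the regions ranked by strength, 22 of the top 50 by lowest percentile had a naive peak (44.0%) and 20 of the bottom 50 (40%).

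Read from the naive side, 30551 regions had a peak in all 4 naive libraries. Of these, 14561 (47.7%) had one in every Th1 and Th2 library, 5668 (18.6%) in none of them, 167 were Th2-only and 87 were Th1-only. Among the 87, the naive peaks of 38 (43.7%) stood above the 50th percentile in all 4 naive lists, and 6 stood above the 90th. Among the 167 Th2-only regions, 53 (31.7%) stood above the 50th and 3 above the 90th. Beside Cd226, the 6 Th1-only regions lay inside Sae1, a SUMO activating enzyme gene, Faah, a fatty acid amide hydrolase gene, Slc12a7, Cmya5 and Nebl. The Sae1 region (chr7:16364207-16364787) was at 98.0, 98.5, 94.9 and 95.01 in naive cells and at 40.5, 13.8, 52.6 and 45.6 in Th1. The Slc12a7 region (chr13:73736800-73737418) was at 97.9, 98.3, 93.1 and 96.2 in naive cells and at 9.16, 11.5, 13.7 and 2.69 in Th1. It was not Th1-only with a −log10 q-value of at least 2. A site of high rank in the naive lists was thus of low rank in the Th1 lists at Slc12a7, while the sites at Il23r and before Prdm1 were called only after culture.

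Some of these regions had a naive peak in 1 genotype only. Of 124 Th1-only regions with a peak in both naive wild-type libraries, 20 (16.1%, exact interval 10.1% to 23.8%) had no peak in either naive knockout library, against 20.9% over all regions. Of 106 with a peak in both naive knockout libraries, 13 (12.3%, 6.69% to 20.1%) had none in wild type, against 8.67%. With equal numbers of peaks per list the first share was 6.86% (12 of 175, 3.59% to 11.7%) against 12.5% of all regions. The second was then 13.7% (26 of 190, 9.14% to 19.4%) against 13.0%. All these intervals cover counting of regions only. The naive libraries of each genotype were technical replicates of 1 biological sample, so a difference between the genotypes was not tested. Regions around 3 red cell markers were open at 5 or 6 of 19 places in the wild-type naive libraries and at 11 or 14 in those of the knockout. Those of the 5 B cell markers were open at 18 or 19 and at 26 or 32 of 66 places, and those of 5 myeloid markers at 20 or 22 and at 14 or 17 of 41. The part of these differences in the naive shares was not tested.

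Th1-only regions mostly lay away from gene starts. A protein-coding gene start lay within 1 kb of 13 of 469 regions (2.77%, exact interval 1.48% to 4.69%), chromosome 18 being left out here, against 11.5% of all regions and 50.7% of those open in every library. The share of Th2-only regions was 2.35% (1.80% to 3.00%), with overlapping intervals. The median distance to a start was 40.2 kb, and 45.0% lay more than 50 kb away. For all regions these values were 29.3 kb and 37.0%, and for Th2-only regions 40.6 kb and 45.0%. Inside a protein-coding gene body lay 258 of the 481 regions (53.6%), against 60.8% of all and 55.8% of Th2-only regions. Outside any gene were 187 (38.9%), against 30.6% of all and 36.6% of Th2-only regions. Regions with a naive peak lay near a start in 10 of 162 cases (6.17%, 3.00% to 11.1%), those without in 3 of 307 (0.977%, 0.202% to 2.83%). Of the printed promoters, those of Ifng, Nkg7 and Serpina3f belong to the former kind and Sun3 to the latter. The median distance to a region with a Th2 peak was 5.25 kb, and 57 of the 481 (11.9%) had one within 1 kb. From Th2-only regions to a region with a Th1 peak the median was 6.07 kb, with 13.1% within 1 kb.

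**Figure D5:**
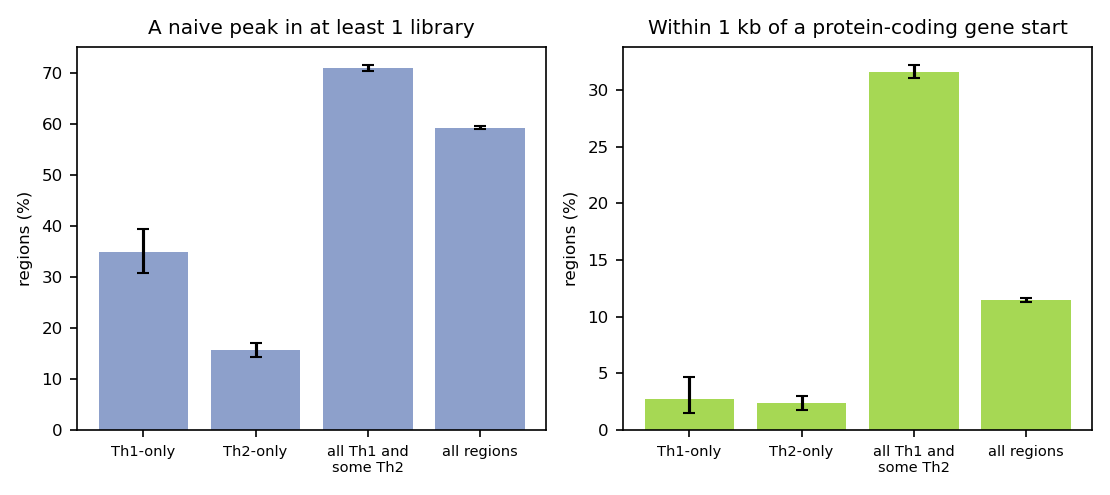
Share of regions (in percent, with exact 95% intervals for counting error) that had a peak in at least 1 naive library (left) and that lay within 1 kb of a protein-coding gene start (right), for 4 sets of regions. Th1-only regions had a naive peak in 34.9% of cases against 15.7% for Th2-only, and 2.77% and 2.35% lay near a start, against 11.5% of all regions.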

How the data were processed

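Open chromatin was measured in 12 ATAC-seq libraries, paired-end with 38 bp reads per the labels' protocols. BWA, Picard, MACS2 and the build GRCm38 are named in the submitters' processing notes, without versions or roles. Each deposited file was the peak list of 1 library, giving for each peak a score, a fold enrichment (ratio), and p-values and q-values as −log10. In the deposited lists the score is the whole part of the −log10 q-value times 10, save for 29 peaks that differed by rounding, and the highest q-value was near 0.1. Scores are the authors' own and were used only to rank peaks within a list. Read depth is unknown, so intervals cover counting of regions only. Groups followed the source names.

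Peaks on chromosomes 1 to 19 and X were merged as described, with Python 3.11.15, numpy 2.4.6, pandas 2.3.3 and scipy 1.17.1. On simulated data 200 of 200 planted regions were recovered, with 0 wrong calls among 12069. No test per region was made. Genes and promoters came from RefSeq's GRCm38.p6 tables, and chromosome 18 had no promoter entries. A gene's regions lie within 20 kb of its body. Regions named in the text are those near genes of the gene lists, the 15 with the highest lowest percentile, the 10 genes with most regions, and those at the border of the rule. The Prdm1, Xcl1, Tgfbr2, Tgfb1, Sae1, Faah, Slc12a7, Cmya5, Nebl, Serpina3f, Sun3 and Ncf1 regions, and genes named from the 50 kb window, were chosen after their values were seen. The regions and the gene lists were chosen with earlier results of these data known. Alternatives were equal list lengths (the 34746 highest scores), a −log10 q-value of at least 2, peaks of at least 300 bp, other overlap rules, other flanks, and leaving out each library. Some items among the named regions and lists are not reported here.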

Additional observations from a re-analysis of the deposited data

How the results depend on the processing

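The count of 481 Th1-only regions became 769 with equal numbers of peaks per list, 281 with peaks of at least 300 bp, 424 with a −log10 q-value of at least 2, and, in alternatives chosen after seeing the data, 409 where peaks had to cover 50% of a region and 458 without a Th2 peak within 500 bp. It ranged from 481 to 800 leaving out each library in turn, with 800 without Th1 wild-type replicate 2. Of the 481, 255 also met the rule with equal lists, 274 with the q-value limit, 141 with the longer peaks and 247 with 50% cover, and 83 met it under all 18 settings. Th2-only regions became 1224 with equal lists. The naive share of Th1-only regions was 25.7% with 50% cover and 30.25% to 37.5% leaving out libraries. That of Th2-only regions was 7.43% with equal lists, 13.0% with 50% cover and 13.8% to 20.4% leaving out libraries. It stayed below the Th1-only share under each of these. The naive knockout loss was 6.86% with equal lists. The share of wild-type Th1-only regions repeated in the knockout was 24.3% with equal lists, 24.9% with longer peaks, 22.5% with 50% cover and 14.2% to 38.0% leaving out libraries. The reverse share was 26.0%, 17.5%, 16.0% and 9.36% to 34.0%. Th1 genes with a region were 7 within 50 kb, CD8 and NK genes 4 with equal lists, and IL-12 and interferon genes 1 within 50 kb. The cause of these shifts was not tested, except that leaving out a library loosens the rule by construction. A minimum cover of 100 bp changed nothing, since the shortest peak was 200 bp. Motif windows of other sizes were not run without a genome. The counts and shares come from no test and have no paired form. For the median percentile, pairing Th1 libraries by replicate number (a replicate block added after seeing the data) gave differences of 1.52 and 5.56 and the same mean of 3.54, and its exact permutation p of 0.50 is the smallest that 2 pairs allow. Depth is unknown, so an uncalled peak cannot be told from a weak one.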
